A study of Homo sapiens with 12 samples.

Results

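In HepG2 cells 8 genes had normalized counts far below control at 0, 3 and 6 h in actinomycin D after CPSF6 silencing. These genes were PIGZ, SMIM14, NHERF2, NGEF, PIP5K1B, PAGR1, NKAP and HNRNPLL. They are 8 of the 22148 genes in the tables and were picked by symbol, because they are much lower in the siCPSF6 than in the control columns. All 8 were found, and all 8 belonged to the 12939 genes with a mean of at least 20 normalized counts. That difference chose the genes, so their levels under silencing are given as a description, with no test.

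HepG2 is an established human liver cancer cell line with hepatocyte traits. Cells received either a control siRNA (siNC) or siRNA against CPSF6 (siCPSF6) for 48 h, and both groups were then kept in actinomycin D, which blocks transcription, at 5 µg/ml for 0, 3 or 6 h. Each of the 6 groups had 2 biological replicates, so there were 12 libraries, and every group, controls included, had been transfected. The labels name a single silencing treatment, with no second siRNA set apart from it. ERCC spike-in RNA, a mixture of synthetic transcripts, had been added to 5 µg of total RNA per library.

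CPSF6 is a subunit of cleavage factor I, which binds UGUA in a nascent transcript ahead of the place where it is cut and given its poly(A) tail. The factor favours cleavage sites far down the 3′ untranslated region, and its loss is known to shift many transcripts to nearer sites and so to shorter ends. Actinomycin D blocks the making of new RNA, so the amount of a transcript over time follows mainly how fast it decays. The levels given here are relative to other RNA, and can thus rise without new synthesis.

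CPSF6 itself was checked first. In siNC cells its normalized counts were 2147 and 2082 at 0 h, 3389 and 3309 at 3 h, and 3469 and 3443 at 6 h. In siCPSF6 cells they were 768 and 718, then 674 and 801, then 810 and 732. Every siCPSF6 library lay below every siNC library, as the labels require. The libraries held about 21752000 to 30283000 reads, and all 8 hepatocyte markers were present in both groups. Of 10 immune, stromal and endothelial markers 5 passed the filter on low counts, PTPRC and CD3E are not among the genes listed, and COL3A1, VWF and CDH5 reached at most 5. The list's summed count ran from 8315 to 40395 in siNC and from 5796 to 19310 in siCPSF6 libraries, nearly all of it LYZ. The part of these markers in the results was not tested.

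Silencing left the 8 genes with 0.176 to 0.237 of their siNC count, as the ratio of the means over 6 libraries each. In all 8, at each of the 3 times, both siCPSF6 libraries lay below both siNC libraries. Among all 12939 genes 22.7% did so. When libraries of all times were set against each other, 7 of the 8 still had no overlap, against 6.58% of all genes; these shares describe the choice and support nothing. In TPM, 5 of 8 had no overlap over all libraries (6.74% of all genes), and 7, 8 and 8 had none at 0, 3 and 6 h (34.9%, 33.1% and 29.7%); SMIM14 was the exception at 0 h. The median silencing difference over the 8 genes, averaged over the times, was -2.22 on the log2 scale of normalized count plus 1, and that of all genes was -0.01. In bulk RNA, fewer cells with a transcript and less of it per cell cannot be told apart.

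**Figure D1:**
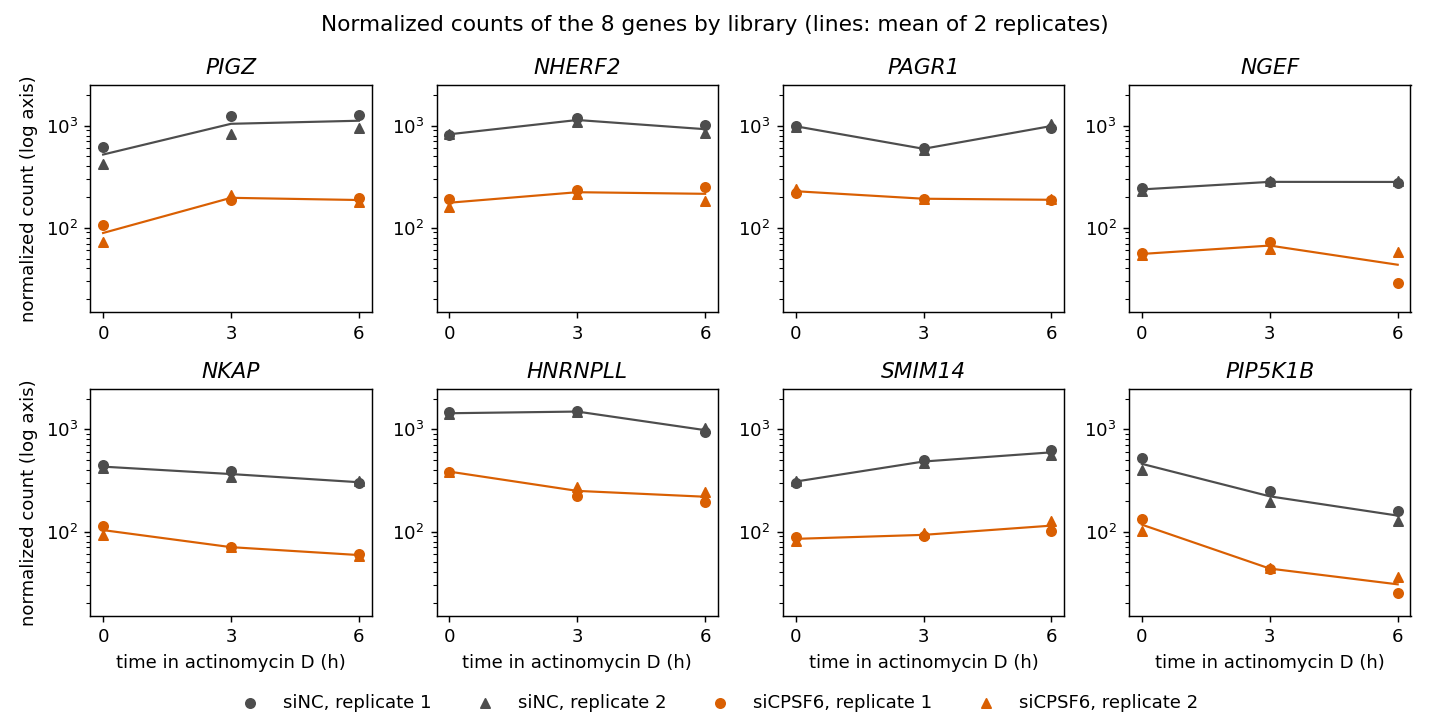
Normalized counts of each gene (log axis) against the time in actinomycin D (h), with grey for siNC and orange for siCPSF6, circles for replicate 1, triangles for replicate 2 and lines through the means. The orange points lie below the grey points at every time in all 8 panels, while the shape over time differs from gene to gene.

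PIGZ and SMIM14 act at membranes. PIGZ is a mannosyltransferase that adds a side mannose to the glycosylphosphatidylinositol (GPI) anchor, the glycolipid that holds some proteins on the cell surface. It lies on the minus strand of chromosome 3 at 196946343 to 196969060 (hg38). The PIGZ counts were 618 and 424 at 0 h, 1255 and 828 at 3 h, and 1280 and 952 at 6 h in siNC cells, against 106 and 72, then 185 and 208, then 197 and 177 in siCPSF6 cells. Replicate 1 was the higher one in every siNC pair, and the lowest siNC library, with 424 counts, still lay well above the highest siCPSF6 library, with 208. PIGZ had the largest drop of the 8, -2.49 on the log2 scale on average, and -2.26 in TPM, a level corrected for transcript length and library size.

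SMIM14, on the minus strand of chromosome 4 at 39546330 to 39639090, encodes a small integral membrane protein of the endoplasmic reticulum. Its counts in siNC cells were 302 and 316, then 501 and 470, then 630 and 564. In siCPSF6 cells they were 89 and 81, then 90 and 96, then 102 and 127. The replicates were close, and the groups lay far apart at every time. The average count difference was -2.20, yet its TPM difference was only -0.89, the smallest of the 8.

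NHERF2, NGEF and PIP5K1B serve signalling at the membrane. NHERF2 is a PDZ scaffold that ties transporters such as the sodium-proton exchanger SLC9A3 to the actin cytoskeleton, and it lies on the plus strand of chromosome 16 at 2025356 to 2039026. Its counts were 818 and 827, then 1179 and 1090, then 1006 and 839 in siNC cells. In siCPSF6 cells they were 193 and 159, then 233 and 213, then 248 and 182. Even the highest silenced library stayed well under the lowest control library, and the average difference was -2.22 in counts and -2.24 in TPM.

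NGEF (ephexin) is a guanine nucleotide exchange factor that acts under Eph receptors. The gene lies on the minus strand of chromosome 2 at 232878686 to 233013272. Counts in siNC cells were 244 and 231, then 279 and 284, then 274 and 288, and in siCPSF6 cells 57 and 54, then 72 and 62, then 29 and 58. The control libraries hardly differed from each other. The value of 29, in siCPSF6 replicate 1 at 6 h, stood at a level well below its partner and rested on about 20.7 reads. The average difference was -2.29 in counts and -1.75 in TPM.

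PIP5K1B makes phosphatidylinositol bisphosphate, a membrane lipid that recruits cytoskeletal and trafficking proteins. It spans 303763 bases on the plus strand of chromosome 9 at 68705414 to 69009176. Its counts were 520 and 401, then 250 and 193, then 159 and 128 in siNC cells. Under silencing they were 133 and 101, then 43 and 44, then 25 and 36. This was the one gene whose groups overlapped across times, since the highest siCPSF6 library, at 0 h, had 133 counts and the lowest siNC library, at 6 h, had 128. At each time the groups were apart, and the average difference was -2.16 in counts and -2.002 in TPM.

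PAGR1, NKAP and HNRNPLL act in the nucleus. PAGR1 is a subunit, with PAXIP1, of the KMT2C and KMT2D histone methyltransferase complexes. It lies on the plus strand of chromosome 16 at 29815952 to 29820117. Its siNC counts were 1002 and 969, then 610 and 576, then 946 and 1036, and its siCPSF6 counts 218 and 238, then 192 and 193, then 186 and 190. The dip at 3 h was seen in both siNC replicates, while the siCPSF6 libraries were nearly level from 3 to 6 h. PAGR1 had the smallest average drop in counts of the 8, -2.04, with -1.98 in TPM, and its log2 difference ran from -1.62 at 3 h to -2.39 at 6 h.

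NKAP, a nuclear repressor of Notch target genes that binds the deacetylase HDAC3, lies on the minus strand of chromosome X at 119920672 to 119943772. Its siNC counts were 444 and 421, then 388 and 344, then 298 and 311. The siCPSF6 counts were 114 and 93, then 71 and 70, then 60 and 58. All silenced libraries were low, and in both groups the libraries at 6 h lay under those at 0 h. The average difference was -2.25 in counts and -2.14 in TPM.

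HNRNPLL, an RNA-binding regulator of alternative splicing best known for PTPRC (CD45) in lymphocytes, lies on the minus strand of chromosome 2 at 38561978 to 38603586. Its counts were 1469 and 1412, then 1504 and 1488, then 946 and 1022 in siNC cells, the highest control level at 0 h among the 8. In siCPSF6 cells they were 387 and 386, then 225 and 276, then 194 and 245. In these counts the siNC libraries held their level to 3 h, whereas the siCPSF6 libraries were already lower at 3 h. Scaled to the spike-ins, both groups were lower at 3 h, at 64.3% of the 0 h level in siNC and 45.7% in siCPSF6 cells. The average difference was -2.21 in counts and -1.94 in TPM.

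Just inside the choice stood PAGR1 at -2.04. Among the 10538 genes with a mean of at least 100, the next genes outside it were ENSG00000263244 at -2.04, CLDN15 at -1.97 and ANGPTL8 at -1.97. The 8 genes are not all of the genes that low: 32 other genes lay at or below PAGR1 in the average, 8 of them with a mean of at least 100. F7 (coagulation factor VII) at -2.50, LINC00641 at -2.20 and SMIM11 at -2.20 ranked among them. By single times, 16 other genes lay at or below the least lowered of the 8 at each of the 3 times. That least lowered gene was not the same at each time.

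The ratio of count to TPM gives an apparent length, that is, the length of the transcripts to which a gene's reads were assigned, which a change of isoform moves. It rests on the authors' transcript annotation, and it was scaled to bases with 322 genes of a single annotated transcript. SMIM14 stood out among the 8. Its apparent length in siNC cells was 5509 and 4273 bases at 0 h, 6423 and 3667 at 3 h, and 5103 and 4590 at 6 h. In siCPSF6 cells it was 1388 and 2348, then 2532 and 1791, then 1926 and 2326 bases. All siNC libraries were long and all siCPSF6 libraries short, with no overlap, although replicates differed by more than 1000 bases in some pairs. The average log2 difference of -1.27 was the 29th lowest of 12939 genes. The count, which chose the genes, enters this length, so the rank is a description and supports nothing. In TPM, by contrast, the groups overlapped at 0 h, with 3.16 and 4.41 in siNC against 3.62 and 2.001 in siCPSF6 cells.

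The authors' annotation is not named in the sources used here. In GENCODE release 29 there is for SMIM14 a long coding transcript of 6483 bases, 5796 of them 3′ untranslated, and a short one of 830 bases, 475 of them 3′ untranslated. The siNC lengths lie nearer the long form and the siCPSF6 lengths between both. The last 30 bases of each form are shown because these ends mark the forms between which the apparent length lies. The HNRNPLL ends follow, since its apparent length was also lower, and then those of PIP5K1B and NKAP, whose lengths lay near each other in both groups. Each is written 5′ to 3′ in the sense of the gene, with DNA letters, and capitals mark a poly(A) signal hexamer, AATAAA or ATTAAA.
SMIM14 long form, chr4:39546330-39546359, minus strand: tcgttcAATAAAcacttcaacaaattttta
SMIM14 short form, chr4:39551643-39551672, minus strand: ttagaaccacgctgtatttacatttacctt
HNRNPLL long form, chr2:38561978-38562007, minus strand: acacatttgatAATAAAtctgccaaactga
HNRNPLL shorter form, chr2:38563186-38563215, minus strand: accatttATTAAAcattctttctcccactg
PIP5K1B, chr9:69009146-69009175, plus strand: ttgtgagagaAATAAAatattttgttctca
NKAP, chrX:119920672-119920701, minus strand: ttattactcAATAAAtattctgtggtttga
The long SMIM14 end carries AATAAA, and the short one holds neither hexamer in these 30 bases. For HNRNPLL the long form of 4173 bases ends with AATAAA and the shorter one of 2779 bases with ATTAAA. Release 29 lists 9 coding transcripts of HNRNPLL, and this pair was picked from them. Its apparent lengths, 2638 to 3107 bases in siNC and 2222 to 2821 bases in siCPSF6 cells, lay around or below the shorter form. The pair thus does not mark the forms between which the length of HNRNPLL moved. The hexamer matches are descriptions of the annotated letters. For NKAP the end shown is that of an annotated transcript far longer than its apparent length.

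HNRNPLL had an apparent length of 2638 to 3107 bases in siNC and 2222 to 2821 bases in siCPSF6 cells, and at each time both silenced libraries were the shorter ones. The average log2 difference was -0.24. PIGZ went from 2366 to 2544 bases in siNC to 2081 to 2239 bases in siCPSF6 cells, without overlap, an average of -0.18. PIGZ and SMIM14 were the only 2 of the 8 without overlap over all libraries, against 6.46% of all genes. With HNRNPLL they were the 3 that lay lower at each time, against 10.8%. These shares are descriptions too, since the count that chose the genes enters the length. NGEF had 2683 to 3195 bases in siNC cells, and 1186 to 3205 bases in siCPSF6 cells, where release 29 lists a main form of 2286 bases and a longer one of 3215 bases. Its silenced libraries thus spread over the whole range, and the average of -0.44 rests on few reads.

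The other 4 genes differed little in apparent length. Their average log2 differences were 0.00 for PAGR1, -0.01 for PIP5K1B, -0.03 for NKAP and 0.04 for NHERF2. PAGR1 read between 3952 and 3970 bases in all 12 libraries, a length beyond the 1702 bases of its transcript in release 29. The apparent length cannot move for a gene with 1 annotated transcript, and release 29 lists 1 coding transcript for PAGR1. Its 0.00 thus does not show whether its 3′ end changed. NKAP read 1817 to 2415 bases, far short of the 5963 bases annotated in that release. Release 29 lists 1 coding transcript for NKAP too. It therefore does not tell which apparent lengths could move under the authors' annotation. NHERF2 read 978 to 1081 bases, short of the 2194 bases of its main transcript there. For all 4 genes the drops in count and in TPM were of like size, which a nearly unchanged ratio of both requires.

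**Figure D2:**
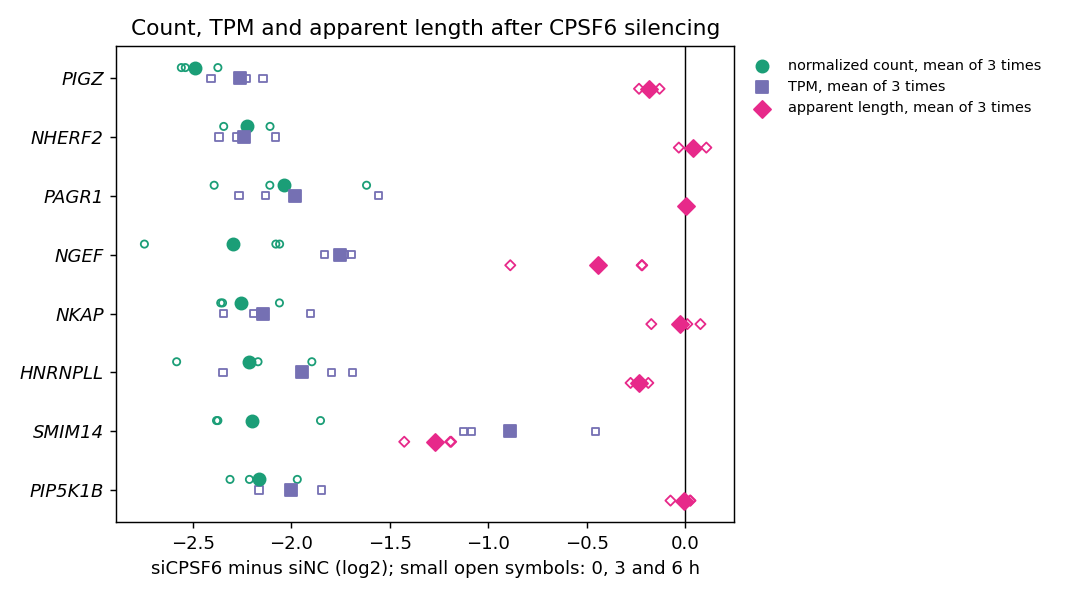
Silencing difference, siCPSF6 minus siNC, on the log2 scale for the normalized count (circles), TPM (squares) and apparent length (diamonds) of each gene, with filled symbols for the mean of the 3 times and small open symbols for each time. SMIM14 is the gene whose TPM (-0.89) and count (-2.20) stand farthest apart, with an apparent length, which is taken from their ratio, of -1.27.

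The annotated 3′ ends of the 8 genes were varied. AATAAA lay in the last 40 bases of the main transcript, on its own strand, in 5 of 8 genes, against 61.2% of 11651 tested protein-coding genes. TGTA, the DNA spelling of the motif that cleavage factor I binds, lay in the last 100 bases in 5 of 8, against 53.8%. The 3′ untranslated regions had a median of 928 bases, against 1056 bases over those genes, and ranged from 274 bases in NGEF to 5796 in SMIM14. Promoters of RefSeq (GRCh38.p14; 250 bases before to 50 after the start) were matched for all 8 genes, 10 promoters in all. Their GC content ran from 45.7% in NKAP to 84.3% in PIGZ and in one of the NGEF promoters, with a median of 58.7% over 35116 promoters. TATAAA, on either strand, was found in NKAP alone of the 10, and in 11.5% of all promoters.

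Some of the genes share bases with others. SNORC overlaps NGEF by 23 bases on the opposite strand, and it was lower in siCPSF6 cells as well, by -0.97 ± 0.06 on the log2 scale (SE; limma, adjusted p = 6.58e-08), with mean counts of 670 in siNC and 341 in siCPSF6 cells. ENSG00000222001, also opposite NGEF, fell by 1.003 on the log2 scale (limma, adjusted p = 0.000846). PABIR1 lies within PIP5K1B on the same strand and fell from a mean of 124 to 85.3 counts, -0.61 in log2 (limma, adjusted p = 0.00126). UGDH-AS1, opposite SMIM14, had 23.7 and 20 counts on average in siNC and siCPSF6 cells and did not pass the test (limma, adjusted p = 0.548). The 3 genes annotated over PAGR1 had at most 38 counts. Of these, ENSG00000280893 and ENSG00000281348 lie on the same strand and share 4141 and 2879 bases with PAGR1. Its reads may thus be split with theirs. PIGZ and NHERF2 overlap no gene in release 29.

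After actinomycin D the 8 genes moved apart. The change over time, averaged over both siRNAs with equal weight, did not enter the choice of the genes and was tested with limma over all 12939 genes. Its direction depends on scaling: the median of all genes from 0 to 6 h was 0.33 in the counts as deposited, -0.58 after scaling to the spike-ins, 0.05 under median-ratio scaling and -0.43 in TPM. Changes are therefore given first relative to the median of all genes under the same scaling. From 0 to 6 h, PIP5K1B lay 2.12 below that median (log2; -2.12 as deposited and -2.12 spike-in scaled), HNRNPLL stood at -1.02, NKAP at -0.98, PAGR1 at -0.47 and NGEF at -0.42. NHERF2 was near it at -0.11, SMIM14 above it at 0.35 and PIGZ at 0.77. Scaling a library by 1 factor shifts all of its genes alike, so these relative values are nearly the same under each count scaling by construction.

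In the counts as deposited, 3 of the 8 genes fell from 0 to 6 h, 2 rose and 3 did not pass, while 84.6% of all genes were called, 31.4% lower and 53.2% higher. After scaling to the spike-ins 6 fell, none rose and 2 did not pass, with 72.7% of all genes called, 61.2% lower and 11.5% higher. Spike-ins were added to a fixed mass of total RNA, so spike-in scaled values are levels per mass of RNA. At 3 h the 2 siCPSF6 libraries had spike-in factors of 1.21 and 0.94, a gap that enters every spike-in scaled value of that group.

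PIP5K1B fell most under both scalings. From 0 to 6 h its log2 change was -1.79 ± 0.16 (SE; limma, adjusted p = 2.54e-08) as deposited and -2.69 ± 0.17 (limma, adjusted p = 1.01e-19) scaled to the spike-ins. Of its 0 h level, 15.9% ± 0.76 (SD, n = 2) remained at 6 h in siNC and 14.5% ± 4.3 in siCPSF6 cells in the spike-in scaled values. The median over all genes was 63.6% and 70.7%. Each such percent, here and below, is a library over the mean of the 2 libraries at 0 h, so its SD leaves out the spread at 0 h. For PIP5K1B in siNC cells the spike-in scaled values at 0 h were 786 and 589. Few genes kept less: 8.95% of all genes in siNC and 5.19% in siCPSF6 cells.

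HNRNPLL and NKAP fell under both scalings too. HNRNPLL changed by -0.69 ± 0.08 (limma, adjusted p = 1.26e-06) as deposited and by -1.60 ± 0.13 (limma, adjusted p = 5.04e-15) scaled to the spike-ins. Its spike-in scaled remainder at 6 h was 35.2% ± 5.6 in siNC and 31.4% ± 6.5 in siCPSF6 cells. NKAP changed by -0.65 ± 0.10 (limma, adjusted p = 2.47e-05) and -1.55 ± 0.15 (limma, adjusted p = 1.90e-13), with 36.2% ± 4.9 and 31.5% ± 0.57 remaining. At 3 h HNRNPLL stood at 64.3% ± 2.8 in siNC and 45.7% ± 15 in siCPSF6 cells, and NKAP at 52.3% ± 1.8 and 47.5% ± 8.1. The siRNA groups lay nearer each other at 6 h than at 3 h for HNRNPLL. These differences were not tested.

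PAGR1 and NGEF fell from 0 to 6 h with the spike-ins but did not pass as deposited. For PAGR1 the deposited change was -0.13 (limma, adjusted p = 0.0896), which passed in limma without trend and robust settings (adjusted p = 0.0447), and it was -0.41 under median-ratio scaling (limma, adjusted p = 7.16e-05). PAGR1 dropped from 0 to 3 h under both, by 0.49 ± 0.07 on the log2 scale (limma, adjusted p = 1.30e-05) as deposited and by 1.10 ± 0.13 (limma, adjusted p = 1.35e-10) with the spike-ins. It rose again from 3 to 6 h as deposited, by 0.35 ± 0.07 (limma, adjusted p = 0.000659), whereas its spike-in scaled change over that span was 0.05 (limma, adjusted p = 0.779). In siNC cells 37.2% ± 0.40 was left at 3 h and 51.9% ± 8.7 at 6 h, and in siCPSF6 cells 58.7% ± 11 and then 45.4% ± 2.6. NGEF changed by -0.09 ± 0.17 from 0 to 6 h (limma, adjusted p = 0.617) as deposited and by -0.99 ± 0.18 (limma, adjusted p = 2.06e-06) with the spike-ins. Its value depends on the low library: without siCPSF6 replicate 1 at 6 h the deposited change was 0.15 (limma, adjusted p = 0.250), and without replicate 2 it was -0.34 (limma, adjusted p = 0.0202).

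For NHERF2 the direction from 0 to 6 h flipped, from 0.22 ± 0.10 (limma, adjusted p = 0.0585) as deposited to -0.69 ± 0.12 (limma, adjusted p = 2.60e-06) with the spike-ins, -0.06 under median-ratio scaling and -0.57 in TPM. The deposited change passed with the replicate number as a block (limma, adjusted p = 0.0111), and also without siNC replicate 2 at 6 h, siCPSF6 replicate 1 at 0 h or siCPSF6 replicate 2 at 6 h (limma, adjusted p = 0.0266, 0.0271 and 0.00492). SMIM14 flipped as well, from 0.68 ± 0.10 (limma, adjusted p = 9.50e-06) to -0.22 ± 0.14 with the spike-ins (limma, adjusted p = 0.156) and -0.24 in TPM. In the spike-in scaled values 98.9% ± 2.7 of SMIM14 was left at 6 h in siNC and 74.6% ± 15 in siCPSF6 cells. The 2 siNC replicates were both higher than the 2 siCPSF6 replicates, at 97.1% and 101% against 64.2% and 84.9%.

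PIGZ was the gene with the highest remainder. Its change from 0 to 6 h was 1.10 ± 0.18 (limma, adjusted p = 0.000238) as deposited and 0.19 ± 0.15 (limma, adjusted p = 0.265) with the spike-ins. As deposited nearly all of it came between 0 and 3 h; with the spike-ins a change of 0.47 from 0 to 3 h was followed by one of -0.28 from 3 to 6 h (limma, adjusted p = 0.158). Spike-in scaled, 109% ± 11 of the 0 h level was present at 6 h in siNC and 116% ± 3.9 in siCPSF6 cells. These SDs leave out the spread at 0 h, where the spike-in scaled values were 934 and 623 in siNC and 140 and 100 in siCPSF6 cells. From 0 to 3 h PIGZ passed the test under both scalings, at 1.07 ± 0.18 (limma, adjusted p = 0.000332) and 0.47 ± 0.15 (limma, adjusted p = 0.00875). PIGZ was thus the 1 gene of the 8 to rise over that span in the spike-in scaled values. These are levels per mass of RNA, and the cause of the rise was not tested.

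**Figure D3:**
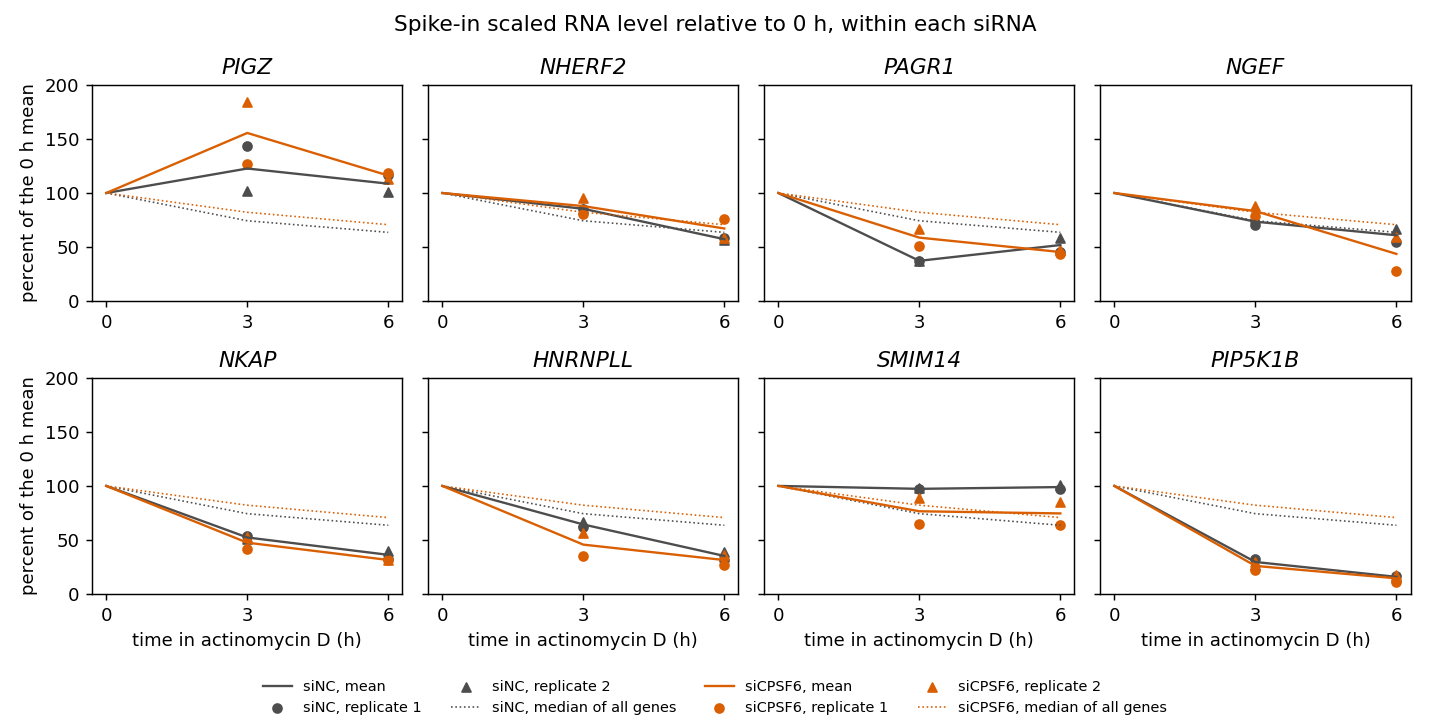
Spike-in scaled level of each gene as a percent of its 0 h mean (y axis) against the time in actinomycin D (h), with grey for siNC and orange for siCPSF6, points for replicates, lines for means and dotted lines for the median of all genes. PIP5K1B ends near 15.9% and 14.5%, PIGZ at 109% and 116%, and the lines of both siRNAs run closest together for NHERF2, NKAP and PIP5K1B, while those of HNRNPLL stand at 64.3% and 45.7% at 3 h.

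From 3 to 6 h as deposited, 3 of the 8 fell, 2 rose and 3 did not pass, and 53.5% of all genes were called, 19.3% lower and 34.1% higher. HNRNPLL fell by 0.40 and PIP5K1B by 0.57 on the log2 scale over that span (limma, adjusted p = 0.000892 and 0.00650). The fall of NKAP, -0.26 ± 0.10 (limma, adjusted p = 0.0464), lost its call without any of 9 of the 12 libraries, at most to an adjusted p of 0.150 without siNC replicate 1 at 3 h. The rise of SMIM14, 0.29 ± 0.10 (limma, adjusted p = 0.0213), did so without siNC replicate 2 at 3 h, siNC replicate 1 at 6 h, siCPSF6 replicate 1 at 3 h or siCPSF6 replicate 2 at 6 h (limma, adjusted p = 0.0587 to 0.0951), and turned to 0.00 with the spike-ins. NHERF2, at -0.19, passed with the replicate number as a block (limma, adjusted p = 0.0407). Without siCPSF6 replicate 1 at 6 h it was -0.30 (limma, adjusted p = 0.0185), and without replicate 2 it was -0.074. NGEF, at -0.35 (limma, adjusted p = 0.0966), was -0.10 without siCPSF6 replicate 1 at 6 h and passed without replicate 2, at -0.59 (limma, adjusted p = 0.00113). From 0 to 3 h the counts were 4, 3 and 1, with 78.1% of all genes called, 27.5% lower and 50.6% higher. With the spike-ins 4 fell, 1 rose and 3 did not pass from 0 to 3 h, against 59.4% of all genes called, 52.4% lower and 6.99% higher. From 3 to 6 h 5 fell, 0 rose and 3 did not pass, against 37.3%, 33.6% lower and 3.73% higher. Apparent length, averaged over both siRNAs, did not change from 0 to 6 h past the threshold in any of the 8 genes (0 of 8 by limma, against 17% of all genes, 12.3% lower and 4.76% higher), and 1 of 8 had an unadjusted p under 0.05, against 30.4% of all genes. That gene was HNRNPLL, at 0.15 ± 0.05 in log2 (limma, adjusted p = 0.0826); it passed when either siCPSF6 library of 3 h was left out (limma, adjusted p = 0.0269 in both fits). NKAP passed without siCPSF6 replicate 2 at 6 h, at 0.18 (limma, adjusted p = 0.0491), against 0.09 with all libraries. For SMIM14 the change was 0.11 ± 0.25, so that its standard error spans changes of either sign. For PAGR1, whose length was nearly constant over all 12 libraries, the measure could hardly have shown a change.

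After the mean of each siRNA group was taken out, the time courses of NKAP and PIP5K1B correlated at r = 0.95, of NKAP and HNRNPLL at 0.87, and of HNRNPLL and PIP5K1B at 0.86, over the same 12 libraries. PIGZ went with SMIM14 at 0.75 and NHERF2 at 0.74, and against PIP5K1B at -0.78. These values share libraries and scaling and are given as a description. Among 10400 other genes that averaged 100 counts or more and carry a symbol, the profiles nearest the median profile of the 8, by root mean square distance in log2 over 12 libraries, were those of CBX5 (0.29), CPSF6 itself (0.29), CHML (0.35), C12orf76 (0.37) and HMMR (0.38). CBX5 is a heterochromatin protein, CHML a Rab escort protein and HMMR a hyaluronan receptor. CBX5 had mean counts of 434 in siNC and 123 in siCPSF6 cells. The median profile holds the silencing drop that chose the 8 genes, so strongly lowered genes tend to lie near it by construction. Among the nearest profiles listed, the average silencing difference ran from -1.95 in CPSF6 to -1.54 in HMMR. Their nearness is thus a description, and whether the 8 genes follow CPSF6 was not tested.

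Relatives of the 8 genes did not share so large a drop, with 1 exception. Lists of enzymes, partners and family members held 124 genes, 111 of which could be tested. In the silencing difference averaged over the times, 47 of 111 were lower, 35 higher and 29 did not pass, and over all genes 69.8% were called, 35.4% lower and 34.4% higher. The median of the lists was -0.08. The values ran from -2.20 in SMIM11 to 1.06 in PIP4K2A. SMIM11 has a near-identical copy in hg38, so its reads may be split and its value is uncertain.

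Of 28 GPI anchor genes beside PIGZ, 12 were lower and 10 higher. PIGM and PIGV, mannosyltransferases that act before PIGZ, fell by 0.80 ± 0.08 (limma, adjusted p = 3.29e-07) and by 0.58 ± 0.07 (limma, adjusted p = 4.31e-06) in log2, while PIGB, the next one in that chain, stood at 0.05 (limma, adjusted p = 0.643). DPM1, which makes the mannose donor, rose by 0.41 (limma, adjusted p = 1.18e-07). Of 17 other genes named SMIM, a naming group with no shared function, 9 were lower and 5 higher, among them SMIM15 at 0.76 and SMIM13 at 0.68 (limma, adjusted p = 2.47e-08 and 9.67e-08).

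Around NHERF2, 2 of 7 were lower and 2 higher. Its paralogue NHERF1 rose by 0.67 ± 0.04 (limma, adjusted p = 1.62e-09), from a mean of 3537 to 5306 counts, PDZK1 stood at 0.00 and the linker RDX fell by 0.51 (limma, adjusted p = 4.68e-07). Around NGEF, 3 of 6 were lower and 1 higher. ARHGEF5, an exchange factor of the same family, fell by 0.59 ± 0.20 (limma, adjusted p = 0.0154), with 42.2 and 29.3 counts on average, and lost the call without siNC replicate 2 at 6 h (limma, adjusted p = 0.0530) or siCPSF6 replicate 1 at 3 h (limma, adjusted p = 0.0514). ARHGEF16 and ARHGEF19 did not pass, at -0.02 and -0.07. Of the Eph receptors, EPHA2 rose by 0.98 (limma, adjusted p = 7.33e-09) and EPHA1 fell by 0.47 (limma, adjusted p = 0.000420).

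Among 12 genes of phosphoinositide kinases and phosphatases 5 were lower and 5 higher. Both paralogues of PIP5K1B rose: PIP5K1A by 0.31 ± 0.05 (limma, adjusted p = 5.21e-05) and PIP5K1C by 0.53 ± 0.07 (limma, adjusted p = 9.68e-06). PIP4K2A rose by 1.06 and PI4KB fell by 0.59 (limma, adjusted p = 8.14e-08 and 9.85e-08).

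The nuclear lists were mixed as well. In the KMT2C and KMT2D complexes 1 of 9 was lower, 2 higher and 6 did not pass. KMT2D fell by 0.36 (limma, adjusted p = 0.000128), RBBP5 rose by 0.54 (limma, adjusted p = 4.53e-05), and PAXIP1 and KMT2C stood at 0.04 and -0.03. Of 7 genes around NKAP, its partners and a gene listed for its like name, 2 were lower and 2 higher. HDAC3 was down by 0.72 ± 0.04 (limma, adjusted p = 1.18e-09) and SPEN up by 0.49 (limma, adjusted p = 0.00118). RBPJ stood at -0.03 in counts but was higher by 0.32 in TPM (limma, adjusted p = 0.00240). Of 25 hnRNP and PTB genes 13 were lower and 8 higher. HNRNPL, the nearest relative of HNRNPLL, rose by 0.11 ± 0.04 (limma, adjusted p = 0.0160), a call lost with the spike-ins (0.06; limma, adjusted p = 0.523) and without siCPSF6 replicate 1 at 3 h or at 6 h (limma, adjusted p = 0.0572 and 0.0504), and PTBP1 fell by 0.20 (limma, adjusted p = 0.00115). HNRNPF rose by 0.90 and HNRNPA3 fell by 0.60 (limma, adjusted p = 2.02e-11 and 1.27e-09).

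**Figure D4:**
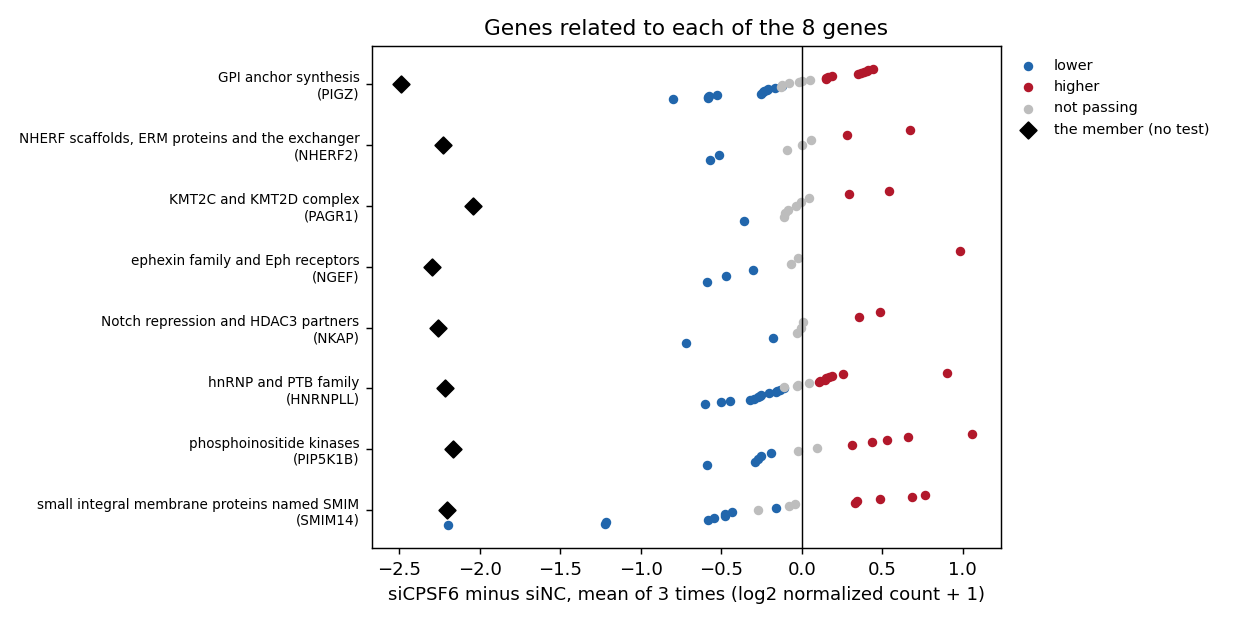
Silencing difference, siCPSF6 minus siNC, averaged over the 3 times (x axis, log2 normalized count plus 1) for the tested genes of each list (rows), blue for lower, red for higher and grey for not passing, with black diamonds for the 8 genes themselves. The diamonds lie at -2.04 to -2.49, and only SMIM11, at -2.20, lies near them. The row of phosphoinositide kinases also holds phosphatases, and the NKAP row also holds a gene listed for its like name.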

How the data were processed

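RNA-seq of 12 HepG2 libraries was used from 2 deposited tables. Reads had been aligned to hg38 with STAR and counted with RSEM, per the submitters' processing notes; their annotation is not stated there. The values of the normalized count table are a score, since the authors scaled the counts and rounded them: in the deposited values the upper quartile is 660.5 or 661 in every library, so no count model was used. TPM values, corrected for length and library size by the authors, were used as deposited. The scaling factors, 0.704 to 1.40, were read from the spacing of the values and give about 21752000 to 30283000 reads per library.

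The 12939 genes averaging 20 or more were fitted with limma 3.58.1 in R 4.3.3 (trend and robust settings, log2 of normalized count plus 1, 6 group means, 6 residual degrees of freedom). P-values were adjusted by Benjamini-Hochberg with a threshold of 0.05; the scripts were tested on simulated data. Fold changes understate those of low genes. Apparent length is the ratio of count plus 1 to TPM plus 0.01. It holds a constant per library, which the planned design had not foreseen. The constant was taken out with the median over 322 annotated single-transcript genes of at least 1000 bases and 100 counts, 56.1% of which then lay within 0.1 (log2) of their annotated length. Spike-in scaling used the sum of 87 ERCC entries.

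Genes and lists were chosen with earlier results of these data known, and some listed genes are not reported here. The rule for names took CPSF6, the 8 genes, their closest relatives, up to 2 genes of each list with the smallest p, overlapping genes and the 5 nearest profiles; F7, LINC00641, SMIM11, ENSG00000263244, CLDN15 and ANGPTL8 were added after their values were seen, as were cell type markers by list. Same-numbered replicates deviated together from their group means (r = 0.108 to 0.236 over all 15 pairs of groups), so the numbers appear to pair the libraries, on the values alone, since the labels name no shared batch; the fit has no term for them, and the block is an alternative. Alternatives were other scalings, TPM, pseudocounts, filters, settings of limma, the replicate block and each library left out, and, chosen after seeing the data, 2 other treatments of the length constant. Columns of all 12 libraries were used.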

Additional observations from a re-analysis of the deposited data

Results flagged for a closer look

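For 2 genes every library of one siRNA moved one way over a span and every library of the other moved the opposite way, in the counts as deposited; neither difference was tested. PAGR1 from 3 to 6 h went from 610 and 576 to 946 and 1036 counts in siNC cells, a log2 change of 0.74, and from 192 and 193 to 186 and 190 in siCPSF6 cells, a change of -0.03, so that the changes differed by -0.77. HNRNPLL from 0 to 3 h went from 1469 and 1412 to 1504 and 1488 counts in siNC cells, a log2 change of 0.05, and from 387 and 386 to 225 and 276 in siCPSF6 cells, a change of -0.63, so that the changes differed by -0.69. With 2 replicates a group, the change in the flatter siRNA of each pair was small against its level. With the spike-ins HNRNPLL was lower at 3 h than at 0 h in both siRNAs, at 64.3% of the 0 h level in siNC and 45.7% in siCPSF6 cells, so its opposite movement is not seen with that scaling. PAGR1 still moved in opposite directions, from 37.2% to 51.9% in siNC and from 58.7% to 45.4% in siCPSF6 cells.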

How the results depend on the processing

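Scaling moved the calls over time most. From 0 to 3 h, 1 of the 8 genes was higher under median-ratio scaling, spike-in scaling and TPM, against 3 as deposited; 38.9%, 6.99% and 14.97% of all genes were higher there. From 3 to 6 h, 5 were lower and 1 higher under median-ratio scaling, 5 lower and 0 higher with the spike-ins and 0 higher in TPM, where 23.8% and 25.7%, 33.6% and 3.73%, and 8.80% of all genes were so called. From 0 to 6 h, 6 were lower and 0 higher with the spike-ins and in TPM alike, against 61.2% and 11.5%, and 56.7% and 18.2%, of all genes. The direction turned with the spike-ins and in TPM from 0 to 3 h for NHERF2 (-0.21 and -0.12), NGEF (-0.35 and -0.44) and SMIM14 (-0.22 and -0.24), and from 0 to 6 h for NHERF2 (-0.69 and -0.57; -0.059 under median-ratio scaling) and SMIM14 (-0.22 and -0.24). From 3 to 6 h it turned for PIGZ (-0.28 and -0.27; -0.058 under median-ratio scaling) and, with the spike-ins, for SMIM14 (-0.0047). Among relatives that did not pass, the sign of the silencing difference turned under median-ratio scaling and in TPM for ARHGEF16 (0.013 and 0.011), KMT2C (0.0034 and 0.081) and RBPJ (0.010 and 0.32), and with the spike-ins for PAXIP1 (-0.0033) and PDZK1 (-0.047). The shifts of the medians of all genes are in the report; the cause of each turn was not tested further.

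With each library left out in turn, 1 to 2 of the 8 genes were higher from 3 to 6 h, PIGZ ranged from -0.13 to 0.17 over that span, and NGEF from 0 to 6 h from -0.34 to 0.15. The silencing difference ranged from -0.096 to 0.047 for ARHGEF16, -0.048 to 0.050 for PDZK1, -0.026 to 0.13 for PIGB and -0.065 to 0.012 for RBPJ. For apparent length from 0 to 6 h, 1133 to 2133 genes were called and 0 to 1 of the 8 were higher. Without the library constant taken out, an alternative chosen after seeing the data, 12425 genes were called and 8 of the 8 were higher, since the constant itself shifts with time. Where a left-out library leaves a group with 1 sample, that sample is assumed to vary like the other groups. The replicate block moved no count of calls by over 1.5 times and changed no call of the 8 genes other than those of NHERF2; from 0 to 6 h 3 were lower and 3 higher with it. Depth limits NGEF and PIP5K1B most, with as few as 20.7 and 17.9 reads in siCPSF6 replicate 1 at 6 h.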
